A study of Homo sapiens with 6 samples.

Results

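The ATF4 amino acid stress genes are a set of 10 named genes, ATF4, ATF3, DDIT3, TRIB3, CHAC1, ASNS, PSAT1, PHGDH, VLDLR and CEBPG. They were picked by symbol, with earlier results of these data known. Of the 29153 genes with a count and an FPKM value (fragments scaled to transcript length and library size), 9 of the 10 were found, and all 9 passed a mean FPKM of at least 0.5 over the 6 libraries, as did 13452 genes in all. CHAC1, a glutathione-degrading enzyme of the same response, was not analysed here. The libraries came from the human liver cancer line HepG2, an established one, collected 72 h after a lentivirus carrying a control hairpin (sh-NC, 3 libraries) or a hairpin against the long non-coding RNA LINC01977 (sh-LINC01977, labelled sh3, 3 libraries). Both groups had thus received a lentiviral hairpin, and the study's methods describe stably infected, puromycin-selected cells. The labels give 1 knockdown hairpin in this cell line, so its effect cannot be told apart from off-target effects of that hairpin, and they do not say that replicates were separate cultures, so p-values measure only the spread between these libraries.

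ATF4 is a basic leucine zipper (bZIP) transcription factor at the centre of the integrated stress response. When amino acids run short, or when other stresses lead to phosphorylation of the initiation factor eIF2, general translation slows while translation of the ATF4 mRNA rises, through short reading frames upstream of its coding sequence. ATF4 then pairs with C/EBP proteins on composite elements near genes for amino acid synthesis, amino acid uptake and tRNA charging, and on those of further factors such as DDIT3 (CHOP) and ATF3. The liver is a main site of amino acid metabolism, and HepG2 cells are a common model of this response.

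The data showed a modest fall of 4 of the 9 measured genes in the sh-LINC01977 libraries, the regulator ATF4 itself, its partners DDIT3 and CEBPG, and the serine synthesis enzyme PSAT1. ATF4, DDIT3 and CEBPG fell by 21.1%, 21.3% and 21.2% in the ratio of group means, and PSAT1 fell by 16.0%. The other 5 genes did not pass the test, and among them ASNS and ATF3 had nearly equal group means. By edgeR and by DESeq2 alike, none of the 9 rose. At an unadjusted p under 0.05, edgeR gave 5 lower genes, the same 4 and PHGDH, and 0 higher. None reached the fold change of 2 with an unadjusted P of at most 0.05 that the study's methods set. Across all tested genes, 8.07% were lower and 7.05% higher at an adjusted p under 0.05, 2.60% passed the fold change rule in either direction, and 37.1% had group values that did not overlap. In this set 5 genes had groups that did not overlap, all with lower values in the sh-LINC01977 libraries. The median log2 fold change was −0.25 over the 9 genes and −0.0010 over all tested genes.

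Total counts were between 49929024 and 60441515 per library, and correlations of log2 CPM were 0.978 to 0.981 within a group and 0.969 to 0.973 between groups. LINC01977 itself had 4, 0 and 16 counts under sh-NC and 0, 0 and 4 under sh-LINC01977. A reduction of the targeted RNA was thus not detectable at this depth, and the groups used here rest on the labels. The study reports a qRT-PCR check of knockdown in its HepG2 line, without saying whether the sequenced cultures were the ones checked. Hepatocyte markers were present, with a summed FPKM of 4447 to 4816 in sh-NC and 3131 to 3197 in sh-LINC01977 libraries, and 7 of the 10 were lower. Their part in the results given here was not tested. Of 8 fibroblast markers chosen, 5 were found and 2 tested. PDGFRB was higher and COL1A1 had a log2 fold change of 0.73 (adjusted p = 0.0504 by edgeR with Benjamini-Hochberg adjustment), with VIM, THY1 and COL3A1 under an FPKM of 0.5 and a summed FPKM of 3.04 to 4.21 in sh-NC and 5.48 to 7.67 in sh-LINC01977 libraries. The 4 endothelial markers found, of 5 chosen, summed to under 0.5 in every library. The 5 leukocyte markers found, of 6 chosen, summed to 626 to 634 and 543 to 559, almost all of it from LYZ, and PTPRC was close to 0. In these bulk libraries, fewer cells of a type and less RNA per cell cannot be told apart.

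ATF4 and its C/EBP partners bind composite sequences with the core TGATGNAA, so the promoter windows of the measured genes were read for that core. The windows, from RefSeq on GRCh38.p14, run from 250 bases before to 50 after each transcript start, and all 9 genes had at least 1, for 16 windows in all. ATF3, ASNS and CEBPG held the core on the gene's own strand. Each is shown with 11 bases on either side, 5′ to 3′ along the gene, with the core in capitals:
ATF3: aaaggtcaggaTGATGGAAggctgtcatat
ASNS: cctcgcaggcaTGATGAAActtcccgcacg
CEBPG: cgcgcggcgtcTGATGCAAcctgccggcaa

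The ATF3 stretch lies at chr1:212565205-212565234 on the plus strand, with the core 191 bases before the start and no GENCODE 29 feature there. The ASNS stretch lies at chr7:97872458-97872487 on the minus strand, 68 bases before the RefSeq start and inside an untranslated exon of longer GENCODE transcripts of ASNS. The CEBPG stretch lies at chr19:33374060-33374089 on the plus strand, 42 bases before the downstream of its starts, within the CEBPG gene and in no annotated exon. Searched on both strands, the core was present in 3 of the 9 genes and in 4.46% of the 27305 genes with a window (3.62% of 35116 windows). Among tested genes with a window, to which all 9 belong, the share was 2.55%. The stricter core TGATGCAA, which is contained in the first, was found in CEBPG of the 9 genes. It was in 1.08% of all genes and 0.611% of tested genes. Neither the cyclic AMP response element TGACGTCA (2.25% of all genes, 3.88% of tested genes) nor the ER stress element (0.0916% and 0.178%) was found in the windows of the 9 genes. That says only that these letters are absent from them. Of the 3 genes with the core, CEBPG fell and ATF3 and ASNS did not pass the test. Of the 229 tested genes with the core in a window, 11.4% were lower and 11.8% higher with a median log2 fold change of −0.0026, against 9.12% lower, 8.02% higher and a median of 0.0039 over 9000 tested genes with a window.

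The first question was how the mRNA of the regulator itself stood. ATF4 (ENSG00000128272, GRCh38 chromosome 22, 39519695 to 39522685, plus strand) measured 722, 726 and 727 CPM under sh-NC and 576, 570 and 570 CPM under sh-LINC01977. CPM here are counts relative to all counts in tested genes of the same library, with TMM, a trimmed-mean correction for composition. The groups lay far apart compared with their spread, at 725 ± 2.84 and 572 ± 3.91 CPM (mean ± SD, n = 3). The log2 fold change was −0.34 (standard error 0.031, 95% interval −0.42 to −0.27, adjusted p = 0.00151 from the quasi-likelihood test of edgeR with Benjamini-Hochberg adjustment over all tested genes). The exact two-sided permutation test gave p = 0.1, the smallest that 3 libraries against 3 allow. ATF4 was the most abundant of the 9 genes, with 29338 to 42773 counts a library, while its pseudogenes ATF4P1 to ATF4P4 held 0 to 36. The ATF4 protein, which is set mainly at translation, is not among these measurements.

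**Figure D1:**
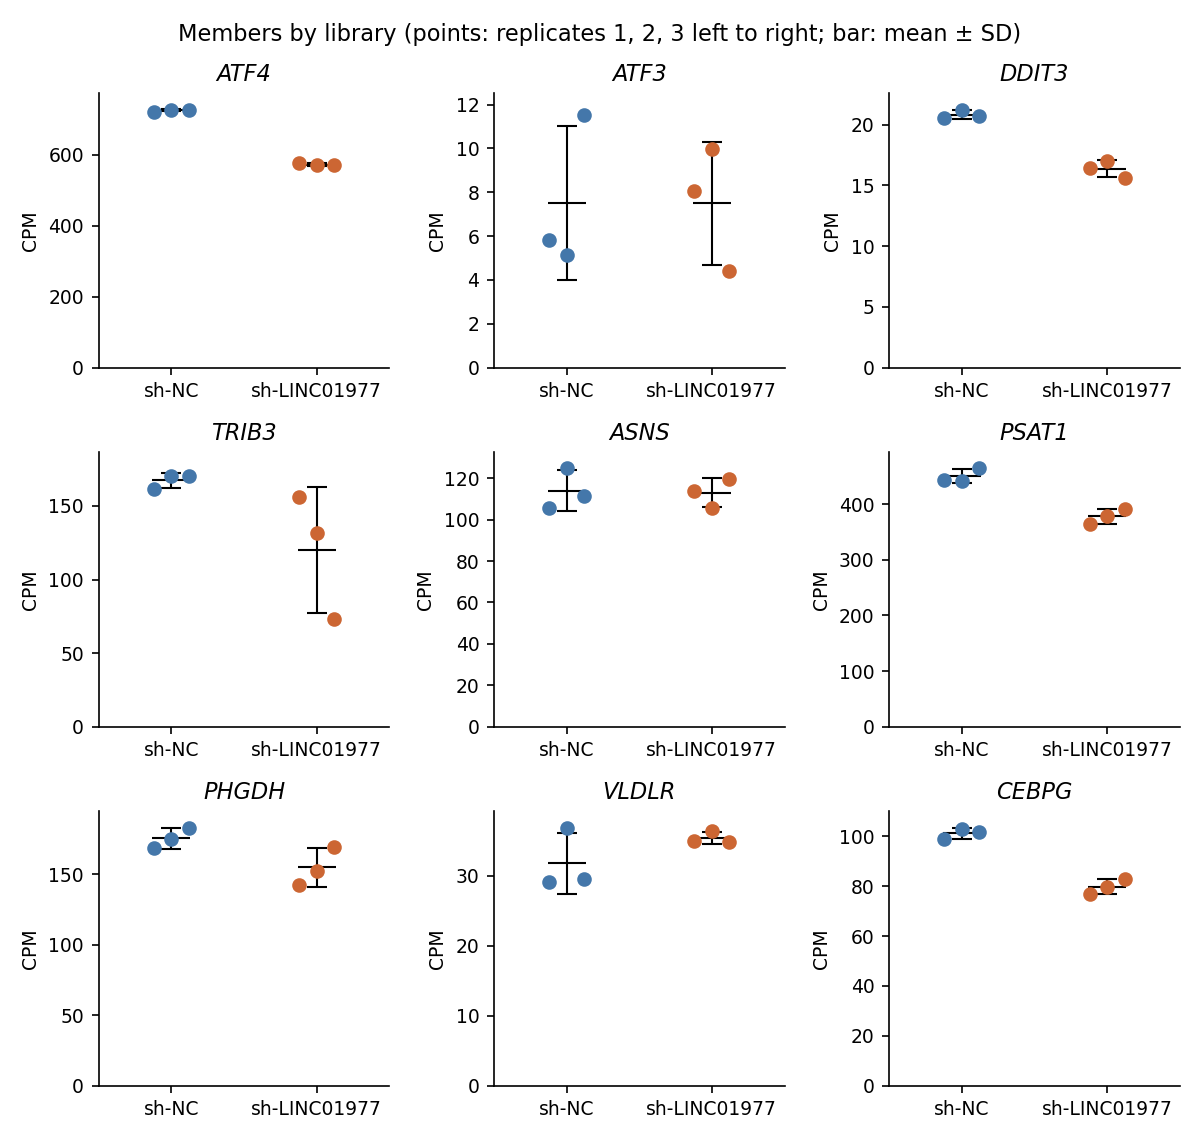
CPM (TMM-scaled counts, linear axis from 0) of the 9 measured genes in each of the 3 sh-NC (blue) and 3 sh-LINC01977 (orange) libraries, with points in replicate order and bars at the mean ± SD. The groups did not overlap for ATF4, DDIT3, PSAT1, CEBPG and TRIB3, and TRIB3 ranged from 72.9 to 156 CPM within the sh-LINC01977 libraries.

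Among the bZIP proteins that pair with ATF4, CEBPG and DDIT3 had estimates close to that of ATF4, and differences between genes were not tested. The 95% intervals of PSAT1, PHGDH, TRIB3 and ATF3 included the ATF4 estimate too. CEBPG (ENSG00000153879, chromosome 19, 33373330 to 33382686, plus strand), a C/EBP protein that forms heterodimers with ATF4, measured 98.9, 103 and 102 CPM in sh-NC and 76.9, 79.5 and 83.0 CPM in sh-LINC01977 libraries. Every sh-LINC01977 value was below every sh-NC value. Its log2 fold change was −0.34 (standard error 0.052, 95% interval −0.47 to −0.22, adjusted p = 0.00768 by edgeR with Benjamini-Hochberg adjustment; exact permutation p = 0.1).

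DDIT3 (ENSG00000175197, chromosome 12, 57516588 to 57520517, minus strand) encodes CHOP, the factor best known for promoting cell death under lasting stress. It measured 20.5, 21.2 and 20.7 CPM in sh-NC and 16.5, 17.0 and 15.6 CPM in sh-LINC01977 libraries, again with no overlap. Its log2 fold change was −0.35 (standard error 0.074, 95% interval −0.52 to −0.17, adjusted p = 0.0256 by edgeR with Benjamini-Hochberg adjustment; exact permutation p = 0.1). The direction was the same with any 1 library left out, but the adjusted p was then 0.0584 to 0.0839, so each of the 6 libraries was needed for the call. DDIT3 shares its locus with MARS, the methionyl-tRNA synthetase gene on the opposite strand, which had 9209 to 11240 counts against 805 to 1219 for DDIT3. MARS had a log2 fold change of −0.03 (adjusted p = 0.739 by edgeR with Benjamini-Hochberg adjustment), and whether the counting used strand is not given in the sources used here.

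ATF3 (ENSG00000162772, chromosome 1, 212565334 to 212620777, plus strand), an immediate stress-response repressor and activator, measured 5.84, 5.13 and 11.5 CPM in sh-NC and 8.07, 9.97 and 4.43 CPM in sh-LINC01977 libraries. The third sh-NC library was the highest of all 6 and the third sh-LINC01977 library the lowest, and the highest value was 2.25 times the lowest within each group. The means were 7.50 ± 3.51 and 7.49 ± 2.82 CPM (SD, n = 3). The 95% interval of its log2 fold change, −0.96 to 0.95, includes both a fall and a rise of nearly 2-fold (edgeR adjusted p = 0.998 with Benjamini-Hochberg adjustment; exact permutation p = 1). ATF3 was therefore measured too variably for a change of the size seen in ATF4 to be detectable, and the sign of its estimate turned with library totals in place of TMM and without either of those 2 libraries.

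The set holds 3 enzymes of amino acid synthesis, of which PSAT1 passed the test and PHGDH and ASNS did not. The difference between these genes was not tested. PSAT1 (ENSG00000135069, chromosome 9, 78297143 to 78330093, plus strand), phosphoserine aminotransferase of the serine pathway, measured 442, 442 and 464 CPM in sh-NC and 364, 378 and 392 CPM in sh-LINC01977 libraries. The groups did not overlap. Its log2 fold change was −0.25 (standard error 0.044, 95% interval −0.36 to −0.15, adjusted p = 0.0124 by edgeR with Benjamini-Hochberg adjustment; exact permutation p = 0.1). It stayed called with each library left out (adjusted p of 0.0272 to 0.0450), and missed the threshold when FPKM values were tested with limma, with a difference of −0.19 in log2(FPKM + 0.1) (adjusted p = 0.0543).

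PHGDH (ENSG00000092621, chromosome 1, 119648411 to 119744226, plus strand), the dehydrogenase that opens the serine pathway just before PSAT1, measured 168, 175 and 183 CPM in sh-NC and 142, 152 and 169 CPM in sh-LINC01977 libraries. The highest sh-LINC01977 library lay just above the lowest sh-NC library, so the groups overlapped. Its log2 fold change of −0.18 (standard error 0.073, 95% interval −0.35 to −0.0070) did not pass after adjustment (adjusted p = 0.150 by edgeR with Benjamini-Hochberg adjustment; exact permutation p = 0.2).

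ASNS (ENSG00000070669, chromosome 7, 97852118 to 97872542, minus strand), asparagine synthetase, is a classical ATF4 target. It measured 106, 125 and 112 CPM in sh-NC and 114, 106 and 120 CPM in sh-LINC01977 libraries, with the groups interleaved. The log2 fold change was −0.014 (standard error 0.080, edgeR adjusted p = 0.928 with Benjamini-Hochberg adjustment; exact permutation p = 0.9), with a 95% interval of −0.21 to 0.18. That interval did not include a log2 fold change as low as the −0.34 of ATF4, and the estimate was 0.052 with library totals in place of TMM. ASNS overlaps AC079781.5 on the same strand. That gene had 97, 802 and 629 counts in sh-NC and 52, 562 and 49 in sh-LINC01977 libraries, against 5750 to 6568 for ASNS. How fragments were divided between the 2 genes is not given, and its effect on the ASNS estimate was not tested.

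TRIB3 had the lowest estimate of the set and the widest spread among its abundant genes. TRIB3 (ENSG00000101255, chromosome 20, 362835 to 397559, plus strand), a pseudokinase that DDIT3 and ATF4 induce and that restrains both, measured 161, 170 and 170 CPM in sh-NC and 156, 132 and 72.9 CPM in sh-LINC01977 libraries. All 3 sh-LINC01977 values were lower than all sh-NC values, by a small margin in the first library and by a large one in the third. The highest sh-LINC01977 value was 2.14 times the lowest, and on FPKM the groups overlapped. The log2 fold change was −0.48 (standard error 0.25, 95% interval −1.08 to 0.13, adjusted p = 0.256 by edgeR with Benjamini-Hochberg adjustment; exact permutation p = 0.1). Without the third sh-LINC01977 library it was −0.22, still not past the test.

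VLDLR was the 1 gene of the set with an estimate above 0. VLDLR (ENSG00000147852, chromosome 9, 2621834 to 2660053, plus strand), a lipoprotein receptor that liver cells raise under stress through ATF4, measured 29.1, 36.9 and 29.5 CPM in sh-NC and 35.0, 36.4 and 34.8 CPM in sh-LINC01977 libraries. The second sh-NC library was the highest of the 6 and the other sh-NC libraries were the lowest, so the groups overlapped. Its log2 fold change was 0.15 (standard error 0.10, 95% interval −0.092 to 0.40, adjusted p = 0.359 by edgeR with Benjamini-Hochberg adjustment; exact permutation p = 0.4). The estimate was 0.27 without the second sh-NC library (adjusted p = 0.0644 by edgeR with Benjamini-Hochberg adjustment) and 0.094 without the first, and did not pass with any library left out. The antisense gene VLDLR-AS1 held 0 to 63 counts a library, against 1585 to 2218 for VLDLR.

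**Figure D2:**
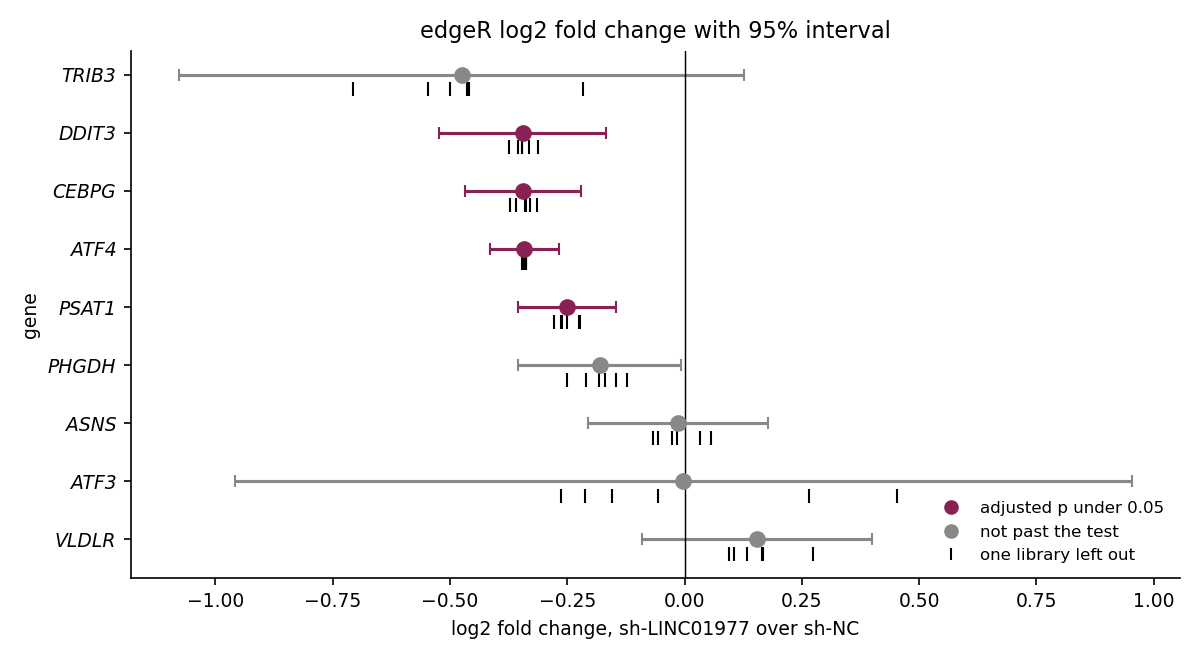
edgeR log2 fold change (sh-LINC01977 over sh-NC) of the 9 measured genes with its 95% interval, and short ticks for the estimate with each of the 6 libraries left out in turn. ATF4, CEBPG, DDIT3 and PSAT1 passed an adjusted p of 0.05, the ticks of ATF4 lie between −0.35 and −0.34, and those of ATF3 run from −0.26 to 0.45.

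Levels between genes were compared per transcript length, as FPKM. In the sh-NC libraries ATF4 stood highest at 229 ± 3.36 FPKM (SD, n = 3), followed by PSAT1 at 163 ± 5.81 and TRIB3 at 38.7 ± 1.60. A middle group followed, with ASNS at 20.3 ± 1.93, CEBPG at 18.2 ± 0.566, PHGDH at 15.1 ± 0.780 and DDIT3 at 13.0 ± 0.319 FPKM. VLDLR at 2.70 ± 0.385 and ATF3 at 1.47 ± 0.703 FPKM were the lowest. Of these neighbours only ASNS and CEBPG overlapped over the sh-NC libraries. The order of the means was the same in the sh-LINC01977 libraries, where ATF4 was at 189 ± 3.01 and PSAT1 at 143 ± 6.70 FPKM, and where TRIB3 overlapped with ASNS and CEBPG with PHGDH.

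**Figure D3:**
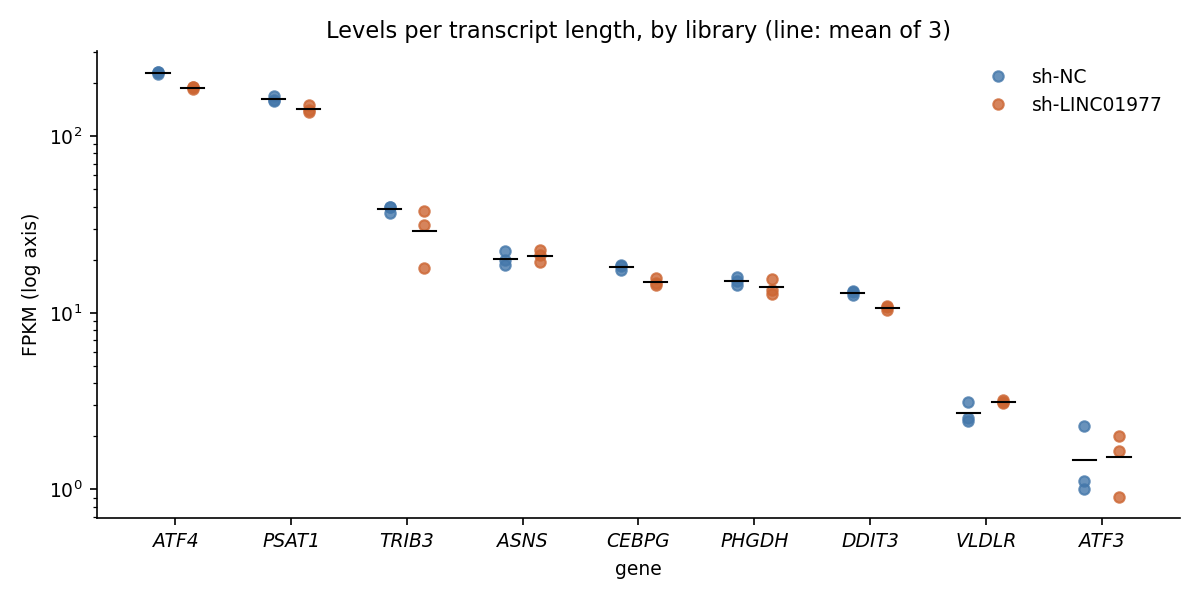
FPKM (log axis) of the 9 measured genes in each library, ordered by the sh-NC mean, with a line at the mean of 3 libraries. The genes span from 229 FPKM for ATF4 to 1.47 FPKM for ATF3 in sh-NC libraries, in the same order in both groups.

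Over the 6 libraries, the pattern of ATF4 in log2 CPM was most like that of DDIT3 (Pearson r = 0.977), CEBPG (0.974) and PSAT1 (0.950) within the set. PHGDH (0.741) and TRIB3 (0.650) followed, while ASNS (0.083), ATF3 (−0.0032) and VLDLR (−0.58) were not like it. The libraries form 2 separate groups, so r here mostly restates the group difference and is given as a description. Outside the set, 5981 genes had a mean FPKM of 5 or more and 741 of them had an r over 0.9 with ATF4. Among the most similar were CPN2, COASY, ATP7B and NKD1, with log2 fold changes of −1.50, −0.78, −0.66 and −0.39.

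The wider ATF4 program was then read from a list of 32 further genes in the table, of which 30 were tested. In this list 10 genes fell, 2 rose and 18 did not pass the test, with a median log2 fold change of −0.11. That was 33.3% lower and 6.67% higher. Over all tested genes the shares were 8.07% and 7.05%, to be set beside the counts of each list below. By edgeR at an unadjusted p under 0.05, 14 of these program genes were lower and 2 higher. With library totals in place of TMM 6 fell, and with limma on FPKM 5 fell. The 3 largest falls were those of HMOX1, the heme-degrading oxygenase (log2 fold change −0.84, standard error 0.056, adjusted p = 0.000692 by edgeR with Benjamini-Hochberg adjustment, as for the values that follow), ATF5, a bZIP factor of mitochondrial and amino acid stress (−0.68, standard error 0.11, adjusted p = 0.00902), and NUPR1, a stress-induced chromatin protein (−0.65, standard error 0.13, adjusted p = 0.0210). HMOX1 measured 71.9, 71.5 and 70.1 CPM in sh-NC and 41.7, 38.2 and 39.5 CPM in sh-LINC01977 libraries, and it also answers to oxidative stress through NRF2. The 7 others that fell, named after their values were seen, were the hepatokine gene INHBE (−0.63), ADM2 (−0.61), the phosphoserine phosphatase PSPH (−0.46), CEBPB (−0.41), the alanine aminotransferase GPT2 (−0.32), the proline synthesis enzyme ALDH18A1 (−0.23) and the death receptor TNFRSF10B (−0.17). The 2 genes that rose were KLHL24 (0.77, standard error 0.13, adjusted p = 0.0103, and 0.36 in log2(FPKM + 1), a scale that understates the change of low genes) and the mitochondrial folate enzyme MTHFD2 (0.23, standard error 0.059, adjusted p = 0.0474). PSPH, CEBPB, ALDH18A1, TNFRSF10B, ADM2 and MTHFD2 each missed the threshold in at least 5 of the 6 fits with a library left out, NUPR1 in 4 and GPT2 in 2. Several familiar members of the program did not pass, among them SESN2 (0.14), DDIT4 (0.12), GDF15 (−0.20) and SHMT2 (−0.17).

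Amino acid transporters of the ATF4 program gave 5 falls and 1 rise among 12 tested genes, with a median log2 fold change of −0.26. By edgeR at an unadjusted p under 0.05, 6 were lower and 1 higher. SLC7A5, the light chain of the large neutral amino acid exchanger LAT1, measured 852, 873 and 808 CPM in sh-NC and 554, 482 and 490 CPM in sh-LINC01977 libraries. This was a log2 fold change of −0.73 ± 0.064 (SE; adjusted p = 0.00141 by edgeR with Benjamini-Hochberg adjustment). Its heavy chain partner SLC3A2, named after its value was seen, fell from 241 ± 6.37 to 184 ± 1.80 CPM (SD, n = 3; log2 fold change −0.39, edgeR adjusted p = 0.00208 with Benjamini-Hochberg adjustment). The glutamine transporter SLC38A3 (−0.73, standard error 0.089), the glycine transporter SLC6A9 (−0.72, standard error 0.15) and SLC43A1 (−0.41, standard error 0.072, also named after its value was seen) fell too. SLC1A5, which exchanges glutamine and other neutral amino acids, rose by 0.20 ± 0.046 on the log2 scale (SE; adjusted p = 0.0313 by edgeR with Benjamini-Hochberg adjustment). SLC6A9 and SLC1A5 each missed the threshold in 4 of the 6 fits with a library left out, and SLC43A1 in 1. The cystine transporter gene SLC7A11 had 57.5 ± 3.72 and 56.6 ± 3.39 CPM and did not pass (log2 fold change −0.02).

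Upstream of ATF4, a list of integrated stress response kinases and eIF2 machinery had 24 tested genes. It holds the eIF2 kinases, eIF2 and its exchange factor, and also regulators and further translation factors such as PPP1R15A and DENR. By edgeR 2 fell and none rose, with a median log2 fold change of −0.010. The share lower was 8.33%, near the 8.07% over all tested genes. Before adjustment, 2 were lower and 1 higher at a p under 0.05, and with library totals in place of TMM 1 fell and 1 rose. The kinase genes EIF2AK1 (HRI), EIF2AK2 (PKR), EIF2AK3 (PERK) and EIF2AK4 (GCN2) had log2 fold changes of −0.03, 0.07, 0.04 and −0.01, and none passed. The genes that fell were EIF2B4, a subunit of the exchange factor eIF2B (−0.39, standard error 0.088, adjusted p = 0.0293 by edgeR with Benjamini-Hochberg adjustment), and DENR, a factor for reinitiation of translation (−0.36, standard error 0.063, adjusted p = 0.0125). Kinase activity and eIF2 phosphorylation are not read by mRNA levels.

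A further list held 22 tested genes of the XBP1 and ATF6 branches of the unfolded protein response, among them chaperones, sensors and degradation machinery. By edgeR 6 rose, 16 did not pass the test and none fell, and the median log2 fold change was 0.13. The share higher was 27.3%, against 7.05% over all tested genes. At an unadjusted p under 0.05, 11 were higher and 0 lower, and no alternative called any of them lower. ATF6, the sensor of that branch, rose by 0.45 on the log2 scale (standard error 0.048, adjusted p = 0.00238 by edgeR with Benjamini-Hochberg adjustment). The lectin chaperone gene CALR rose by 0.41 (standard error 0.035) and SEL1L, of the degradation machinery, by 0.34 (standard error 0.044). The other 3, named after their values were seen, were PDIA6 (0.29), PDIA4 (0.26) and HSPA5, which encodes BiP (0.24). XBP1, DNAJB9 and HERPUD1 did not pass, with log2 fold changes of 0.04, −0.13 and −0.19.

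Of 28 tested genes for other bZIP proteins, 5 fell and 2 rose, with a median log2 fold change of −0.19. The shares were 17.9% lower and 7.14% higher, against 8.07% and 7.05% over all tested genes. Before adjustment, 8 were lower and 2 higher at a p under 0.05 by edgeR. JUNB rose most (1.11, standard error 0.12, adjusted p = 0.00231 by edgeR with Benjamini-Hochberg adjustment), followed by ATF6B (0.42, standard error 0.087, adjusted p = 0.0227). ATF5 and CEBPB, which are also in the wider program, fell together with JUND (−0.46, standard error 0.088), NFIL3 (−0.42, standard error 0.050) and, named after its value was seen, the hepatocyte factor CEBPA (−0.22, standard error 0.046).

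Around PSAT1, PHGDH and ASNS, 19 genes of serine, glycine, asparagine and folate-linked metabolism were tested, those 3 included, of which 5 fell and 1 rose, with a median log2 fold change of −0.066. Besides PSAT1 and PSPH, the falls were those of ALDH1L1, a folate dehydrogenase of hepatocytes (−0.92, standard error 0.072, adjusted p = 0.00106 by edgeR with Benjamini-Hochberg adjustment), the glutamine synthetase gene GLUL (−0.61, standard error 0.055, adjusted p = 0.00146) and the asparaginase gene ASRGL1 (−0.53, standard error 0.12, adjusted p = 0.0332). MTHFD2 was the 1 that rose. Before adjustment, 7 were lower and 4 higher at a p under 0.05 by edgeR. With library totals in place of TMM, 3 fell and 4 rose. Serine synthesis from glycolysis takes 3 enzymes in turn, and by this test PSAT1 and PSPH, the later ones, fell and PHGDH, the first, did not pass.

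Of 20 tested cytosolic aminoacyl-tRNA synthetase genes, which load tRNAs with amino acids, only TARS, the threonyl enzyme gene, fell (−0.25, standard error 0.043, adjusted p = 0.0122 by edgeR with Benjamini-Hochberg adjustment), none rose by edgeR or under any alternative, and the median log2 fold change was −0.036. The 1 fall was 5.0% of the list, against 8.07% lower over all tested genes. At an unadjusted p under 0.05, 2 of these synthetase genes were lower and 0 higher. Relatives of CHAC1 and TRIB3 gave few calls. Of 12 genes of glutathione metabolism, where CHAC1 belongs, GSS rose (0.25, standard error 0.057) and GPX4 fell (−0.32, standard error 0.060). Each was 8.33% of that list, near the 7.05% higher and 8.07% lower over all tested genes. Of 2 tested relatives of TRIB3, TRIB1 rose (0.41, standard error 0.052, adjusted p = 0.00434 by edgeR with Benjamini-Hochberg adjustment) and STK40 did not pass (0.08).

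**Figure D4:**
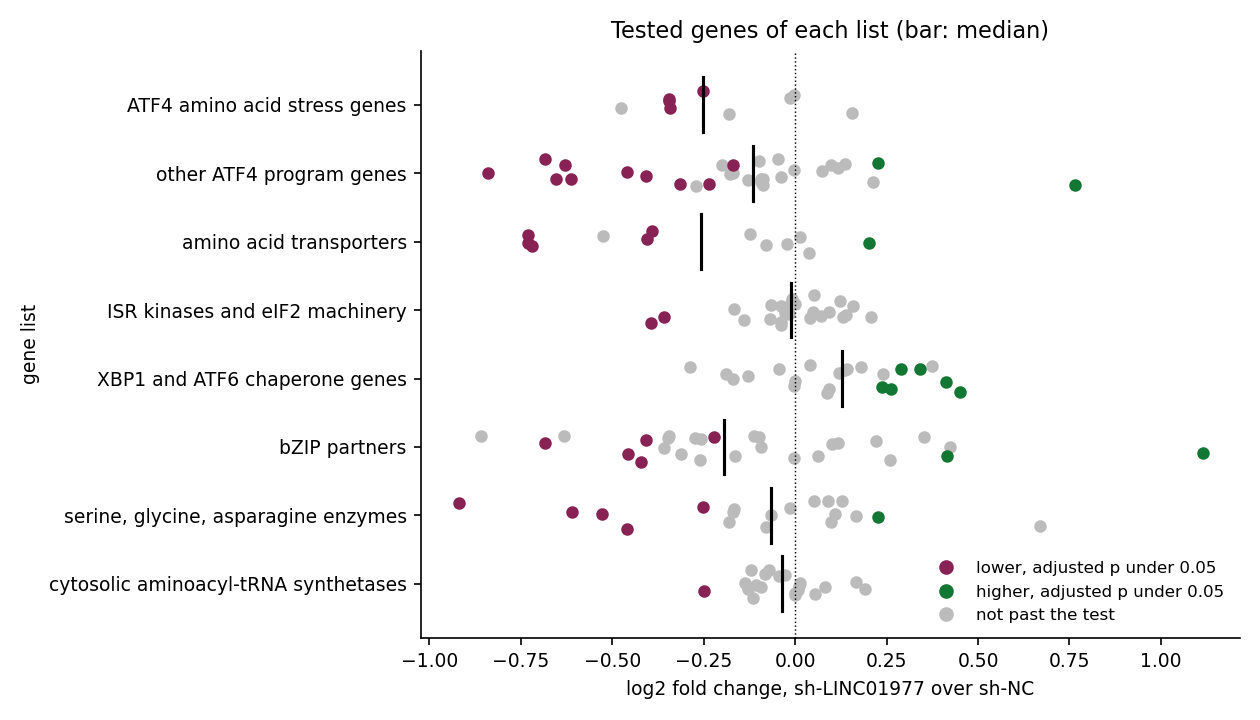
edgeR log2 fold change (sh-LINC01977 over sh-NC) of each tested gene in the ATF4 set and in 7 other lists, with purple for genes that fell and green for genes that rose at an adjusted p under 0.05, grey for the rest, and a bar at the list's median. The medians run from −0.26 for amino acid transporters to 0.13 for the XBP1 and ATF6 list, which holds chaperones and other genes. Some genes are in more than 1 list.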

How the data were processed

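TRIzol-extracted RNA of HepG2 cells gave 6 libraries, 3 sh-NC and 3 sh-LINC01977, read by Illumina HiSeq sequencing. The authors deposited raw counts per gene, without normalization, and FPKM values, scaled to transcript length and library size. The submitters' processing notes name bcl2fastq 2.0, HISAT2, StringTie, DESeq2, limma and hg38. The annotation and strand setting are not given in the sources used here. Genes were matched by symbol, and groups came from the labels.

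The 13452 genes whose mean FPKM reached 0.5 were tested on counts in R 4.3.3 with edgeR 4.0.16 (TMM, quasi-likelihood test, Benjamini-Hochberg adjustment). The 95% intervals use the standard error from the F statistic. An exact two-sided permutation test was added for each member. The script was tested on simulated counts. The members and lists were chosen with earlier results of these data known, so no set test was run. Of other lists, up to 3 genes in each direction with the largest log2 fold change among those called were named, with exceptions marked in the text, and of the 5 genes most correlated with ATF4 all but 1, which is not reported here, nor is 1 further list.

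Same-numbered libraries did not deviate together (correlations of −0.029, 0.017 and 0.055), so replicate numbers were not taken to pair the samples. Alternatives were DESeq2 1.42.0, limma 3.58.1 on log2(FPKM + 0.1) and on pseudocounts of 1 and 0.01, DESeq2 size factors, library totals, filters of none or a mean FPKM of 1, counts divided by 4, a replicate block, and leaving out each library. Promoter windows were read from RefSeq (GRCh38.p14).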

Additional observations from a re-analysis of the deposited data

How the results depend on the processing

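ATF4 and CEBPG kept their fall and their call under all 16 alternatives (log2 fold changes of −0.35 to −0.28 and −0.37 to −0.26). The number of members that fell went from 4 to 3 with no filter, under the replicate block, with each limma fit and with each library left out, and no member rose or passed the fold change of 2 under any alternative. DDIT3 missed the threshold with no filter (−0.36, adjusted p = 0.0539 by edgeR with Benjamini-Hochberg adjustment), under the replicate block (−0.35, adjusted p = 0.0685) and with each library left out (−0.37 to −0.31). PSAT1 missed it with limma at all 3 pseudocounts (−0.19). ATF3 changed sign with library totals (0.056), a mean FPKM of 1 (0.0054), limma at pseudocounts of 0.1, 1 and 0.01 (0.073, 0.043 and 0.078) and the replicate block (0.036), with −0.26 to 0.45 over libraries left out (0.45 without the third sh-NC and 0.26 without the third sh-LINC01977 library). ASNS changed sign with library totals (0.052) and limma (0.051, 0.049 and 0.051), with −0.067 to 0.057 over libraries left out (0.057 without the second sh-NC and 0.033 without the second sh-LINC01977 library).

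In the other lists, the program genes that fell numbered 6 with library totals and with no filter and 5 with limma (3 to 7 with a library left out), and those that rose 1 with no filter, with a mean FPKM of 1 and under the replicate block (1 to 2). Transporters that fell numbered 3 to 5 with a library left out, and those that rose 0 with no filter and under the block (0 to 1). Of the eIF2 genes, 1 fell and 1 rose with library totals and with limma (1 to 2 fell with a library left out). Of the bZIP genes, 3 fell with library totals and with limma (2 to 6), and 1 rose under the block (1 to 2). Of the serine, glycine and asparagine enzymes, 3 fell with library totals and 2 with limma (3 to 4), while 4 rose with both and 0 with no filter and under the block (0 to 1). Glutathione genes gave 3 falls (0 to 2) and 2 rises with DESeq2, and 0 rises with no filter and under the block (0 to 1). Of the 38 genes of these lists that were called and named, 20 kept their call under every alternative in which they were tested (KLHL24 was below a mean FPKM of 1 and so had 15) and 18 missed the threshold with at least 1 library left out, none with a change of sign. Those 18 were MTHFD2, NUPR1, SLC1A5, SLC6A9, EIF2B4, ATF6B, JUND, ASRGL1, GSS, GPX4, ALDH18A1, TNFRSF10B, ADM2, PSPH, GPT2, CEBPB, SLC43A1 and CEBPA, with adjusted p up to 0.135 by edgeR with Benjamini-Hochberg adjustment. The stricter core was in 1 member in place of 3.

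Library totals moved the median of all genes from −0.0010 to 0.065, the genes called from 1085 lower and 948 higher to 768 lower and 1455 higher, and the median of the members from −0.25 to −0.19. limma at 0.1 gave 729 lower and 1269 higher. The replicate block gave 754 lower and 636 higher, and leaving out a library 627 to 738 lower and 549 to 669 higher. The cause of these changes was not tested. A count of 4 occurred in 8101 gene and library pairs, against 2780 for 3 and 1758 for 5, so small counts may not be independent fragments, and counting error is only part of the error. The members had 228 or more counts in each library. Whether counting error or the spread between libraries limited the test of each member was not tested.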
